A study of Homo sapiens with 10 samples.

Results

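Chromosome 19 carries the densest collection of C2H2 zinc finger genes in the human genome, and their histone acetylation was followed in H1975, an established human lung adenocarcinoma line with mutant EGFR. The members were the annotated H3K27ac regions on chromosome 19 whose assigned gene had a symbol of ZNF followed by a number, with or without letters at its end. This gave 522 of the 67387 annotated regions and 218 of the 15633 assigned genes, and each region was 502 bp long (build hg38). The mark was profiled by ChIP-seq, sequencing of immunoprecipitated chromatin, in 9 libraries, 3 for each of 3 conditions, which the labels call biological triplicates. DMSO cells spent 21 days without drug and 3 days in DMSO. Cells named osimertinib DTP, where DTP stands for drug-tolerant persister, received the EGFR inhibitor osimertinib at 500 nM over 24 days. Cells named osimertinib DTP + AZD5153 received osimertinib at 500 nM over 21 days and then AZD5153, a BET inhibitor, at 150 nM over 3 days, and their values are given as those after AZD5153. The labels do not state whether osimertinib was kept in those 3 days, so AZD5153 and 3 days less of osimertinib cannot be told apart. All conditions are cultures of 1 cell line, so the values describe that line alone.

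Most zinc finger genes of this chromosome encode proteins that join a run of C2H2 fingers, which read DNA sequence, to a KRAB domain. The KRAB domain recruits TRIM28, which brings the methyltransferase SETDB1 and HP1 proteins and so places H3K9me3, a mark of silent chromatin, over transposable elements and other targets. The genes arose by tandem duplication and lie in clusters, where their own 3' exons are often covered by H3K9me3. H3K27ac, in contrast, marks active promoters and enhancers, and BET proteins bind acetylated histones.

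The 9 libraries held between 6263443 and 10463351 reads in the counted regions and the input library held 1870885. Replicate 2 of osimertinib DTP and replicate 3 of osimertinib DTP + AZD5153 stood apart, with 50.8% and 52.9% of their counts in annotated promoter regions against 29.3% to 34.8% in the others, and results that rest on them are given with and without them. All 6 epithelial markers (KRT7, KRT8, KRT18, KRT19, EPCAM and CDH1) had a promoter region, at mean levels of 11.5 to 70.6 CPM (counts scaled to a common library size), and the leukocyte markers PTPRC and CD3E had none. Of the endothelial markers 1 of 2 had one (CDH5, 13.5, 19.8 and 18.1 CPM in the means of DMSO, osimertinib DTP and osimertinib DTP + AZD5153), and the hepatocyte marker ALB had none. Of the fibroblast markers 2 of 3 had one and DCN had none. Mean levels in the same order were 7.49, 24.7 and 18.8 CPM for COL1A1 and 1.79, 5.81 and 14.7 CPM for COL1A2, with log2 fold changes against DMSO of 1.72 (edgeR adjusted p = 0.0925) and 1.32 (0.161) for COL1A1, and of 1.68 (0.202) and 3.01 (0.0205) for COL1A2. COL1A2 thus passed an adjusted p of 0.05 after AZD5153, and the part of these markers in the results was not tested. The peak list of replicate 3 of osimertinib DTP is named H1875 where the labels read H1975, and the labels were followed. In bulk libraries, a mark on fewer cells and less of the mark per cell cannot be told apart.

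Promoter sequences are shown for the gene with the highest promoter level (ZNF274), for a pair of genes whose promoter regions rose (ZNF441 and ZNF442) and for a gene whose promoter regions fell (ZNF841). They are RefSeq promoters (GRCh38.p14), from 250 bases before to 50 after the annotated start, written 5′ to 3′ on the strand of the gene. Their positions are chr19:58182811-58183110 (plus strand), chr19:11766750-11767049 (plus strand), chr19:12365634-12365933 (minus strand) and chr19:52094222-52094521 (minus strand), in that order. Capitals mark GGGCGG (the GC box), CCGGAAG (an ETS core), TGACTCA (an AP-1 site) and CCAAT, read on either strand.
ZNF274: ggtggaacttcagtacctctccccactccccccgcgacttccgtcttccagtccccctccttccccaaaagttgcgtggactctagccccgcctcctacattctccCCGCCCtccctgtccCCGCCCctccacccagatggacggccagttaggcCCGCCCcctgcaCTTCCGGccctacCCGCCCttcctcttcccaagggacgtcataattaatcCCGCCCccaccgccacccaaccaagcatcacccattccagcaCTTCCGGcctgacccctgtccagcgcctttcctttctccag
ZNF441: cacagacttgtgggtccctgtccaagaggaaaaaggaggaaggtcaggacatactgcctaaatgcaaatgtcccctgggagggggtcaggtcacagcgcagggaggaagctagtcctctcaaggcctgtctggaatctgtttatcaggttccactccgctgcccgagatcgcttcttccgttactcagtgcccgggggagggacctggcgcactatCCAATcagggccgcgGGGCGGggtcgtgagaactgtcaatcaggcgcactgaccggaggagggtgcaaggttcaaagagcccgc
ZNF442: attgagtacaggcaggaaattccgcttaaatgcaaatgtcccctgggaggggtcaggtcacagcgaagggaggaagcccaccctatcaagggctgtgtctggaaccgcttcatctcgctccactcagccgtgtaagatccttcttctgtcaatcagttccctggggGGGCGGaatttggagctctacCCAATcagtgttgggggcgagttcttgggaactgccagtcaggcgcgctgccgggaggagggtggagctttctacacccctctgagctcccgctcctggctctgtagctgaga
ZNF841: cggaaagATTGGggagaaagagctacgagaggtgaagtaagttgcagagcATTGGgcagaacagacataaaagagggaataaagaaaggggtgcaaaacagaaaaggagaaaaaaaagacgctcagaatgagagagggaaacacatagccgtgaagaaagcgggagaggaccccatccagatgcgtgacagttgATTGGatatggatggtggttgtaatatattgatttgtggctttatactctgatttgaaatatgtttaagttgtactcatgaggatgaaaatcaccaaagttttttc
The ZNF274 window held 5 GC boxes, 2 ETS cores and 16 CpG dinucleotides. It overlapped the ZNF274 promoter region at chr19:58182321-58182822, and not the region with the highest level of that gene, chr19:58183323-58183824. The windows of ZNF441 and ZNF442 each held 1 GC box and 1 CCAAT, with 14 and 11 CpG, whereas that of ZNF841 held 3 CCAAT, 6 CpG and no GC box. Over the 178 RefSeq promoters of 158 member genes that overlapped a promoter region of the same gene, the median was 20.5 CpG per 300 bases (range 6 to 37), against 27 over 9219 promoters of all genes chosen in the same way. The member promoters thus had fewer CpG at the median than these 9219, but more than all 35116 RefSeq promoters (median 14). The median was 25 for zinc finger genes on other chromosomes. An ETS core was present in 37.6% of them, in 33.5% of the 170 such promoters of zinc finger genes on other chromosomes and in 20.4% of the 9219. CCAAT was present in 50.6% against 35.7% of the 9219, the GC box in 64.6% against 72.6% and the AP-1 site in 1.69% against 3.8%. In the 170 promoters of zinc finger genes on other chromosomes these 3 shares were 43.5%, 58.8% and 4.12%. The AP-1 share of the members came from 3 of 178 promoters. Over all 35116 promoters in the table the shares were 10.3% for the ETS core, 34.6% for CCAAT, 45.0% for the GC box and 4.95% for the AP-1 site. These are counts of letters, and the binding of no factor was measured.

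Most of the members were promoters. Of the 522 regions, 360 lay within 1 kb of a transcription start site (TSS) and belonged to 210 genes, and these are called promoter regions here. The other 162 regions were assigned to 60 genes and comprised 58 in introns, 41 distal intergenic, 19 in exons, 15 in 3' UTRs, 14 at 1 to 2 kb and 12 at 2 to 3 kb from a TSS, 2 in a 5' UTR and 1 downstream. A region takes the name of the nearest TSS, at most 89435 bp away, and 78 of the 162 other regions overlapped the gene they were named after, so the name of such a region gives its place. RefSeq lists 246 coding genes with such symbols on the chromosome, of which 210 had an assigned region and 202 an assigned promoter region. ZNF382 and ZNF536 were among the 36 to which no region was assigned, and 14 of the 36, ZNF382 among them, overlapped an annotated region named after another gene. ZNF431 had the most regions (17), followed by ZNF841 (13), and 100 genes had 1.

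Along the chromosome the regions fell into 15 blocks separated by gaps of more than 1 Mb. The 3 largest blocks held 337 of the regions. One, next to the centromere, spanned chr19:19668879-24087708 with 104 regions of 31 genes. Another spanned chr19:51593968-53555049 with 112 regions of 37 genes, and the last, towards the end of the long arm, spanned chr19:55472571-58476542 with 121 regions of 54 genes. Promoters made up 46 of the 56 regions of the block at chr19:11505375-12640294 but 47 of 104 in the block next to the centromere, which was the richest in other regions (57). In the 6 blocks with fewer than 5 regions, which held 16 regions of 10 genes, 0 regions passed the threshold in any of the 3 comparisons by edgeR.

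At the median, promoters of these genes had about as high a level as those of other genes, in CPM that are not corrected for input. The top promoter region of a gene, the one with the highest mean level, had a median of 19.6 CPM over 210 genes (interquartile range 10.9 to 29.1), against 17.8 CPM over 12295 genes (10.2 to 28.0). The 360 promoter regions held 0.414% of the counts of the input. Their mean shares were 0.556% in DMSO, 0.598% in osimertinib DTP and 0.576% after AZD5153. ZNF274, whose product recruits SETDB1 to the 3' ends of zinc finger genes, ranked first. Its top region (chr19:58183323-58183824) measured 53.8, 72.4 and 64.9 CPM in DMSO, 59.1, 121.6 and 55.1 CPM in osimertinib DTP and 59.2, 76.0 and 151.7 CPM after AZD5153. The highest values were those of the 2 libraries that stood apart, and the groups overlapped. ZNF766, ZNF414, ZNF880, ZNF583, ZNF627, ZNF329, ZNF616, ZNF791 and ZNF562 followed, with means from 61.5 down to 45.0 CPM. The input had 38 reads in the ZNF274 region and from 19 (ZNF627) to 50 (ZNF583) in the others. The median over the promoter regions was 20 input reads.

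**Figure D1:**
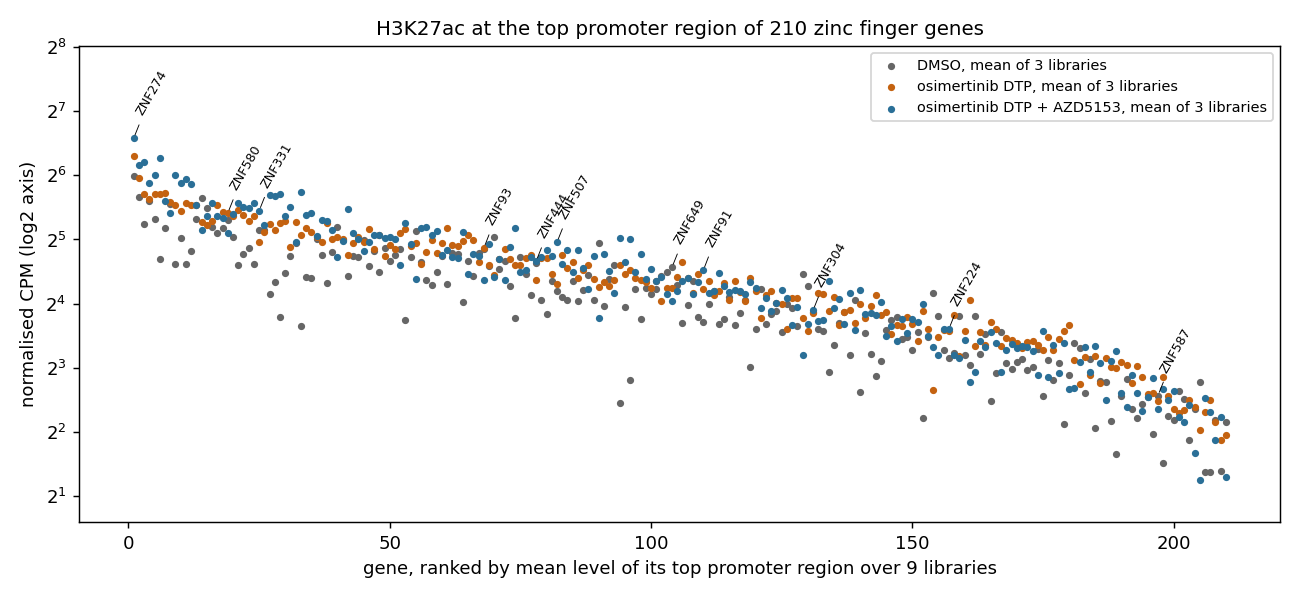
H3K27ac level (normalised CPM, log2 axis) at the top promoter region of each of 210 zinc finger genes, ranked by the mean over 9 libraries, with 1 point for each group (mean of 3 libraries). ZNF274 leads with a mean of 79.3 CPM, the means fall without a step to 3.58 CPM, and genes named for a known role are spread along the ranks.

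Genes with a known role were found at all levels. ZNF580, a small protein with no KRAB domain, ranked 19 of 210 (38.8 CPM over 9 libraries) and the imprinted ZNF331 ranked 25 (36.7 CPM). The region named after ZNF580 (chr19:55640200-55640701) overlapped the neighbouring gene ZNF581 and not ZNF580 itself. Repressors of retrotransposons came further down. ZNF93, which binds LINE-1 elements, measured 29.0 ± 10.7 CPM in DMSO, 29.1 ± 4.09 in osimertinib DTP and 20.7 ± 13.5 after AZD5153 (SD, n = 3). ZNF91, which binds SVA elements, measured 13.1 ± 3.19, 18.8 ± 6.03 and 22.9 ± 4.89 CPM in the same order (SD, n = 3). ZNF649, a retrotransposon repressor as well, measured 23.6 ± 5.29, 19 ± 6.75 and 16.5 ± 2.48 CPM (SD, n = 3). For ZNF93 the libraries after AZD5153 had 30.7, 26.2 and 5.41 CPM, so its lower mean rested on replicate 3, a library that stood apart. The ZNF93 region overlapped no RefSeq gene. None of the top promoter regions of these 3 genes passed the threshold in any comparison. ZNF444 and ZNF507 (23.7 and 23.0 CPM), the repressor genes ZNF304 (14.6 CPM) and ZNF224 (11 CPM), and ZNF587 (5.53 CPM) completed the order.

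Promoter peaks were as common in each group. A deposited peak overlapped a promoter region in all 3 libraries for 198 genes in DMSO, for 199 in osimertinib DTP and for 199 after AZD5153, and 185 of the 210 genes had such a peak in all 9 libraries. The other regions varied more. Of the 162, 109 were under a peak in all 3 DMSO libraries and 126 in all 3 libraries of osimertinib DTP, but 49 in all 3 libraries of osimertinib DTP + AZD5153, where the single libraries had 84, 106 and 63. The lowest of these, replicate 3, was 1 of the 2 libraries that stood apart, but replicate 1 also lay under the 117 to 125 of the DMSO libraries and the 140 of each osimertinib DTP library. Peaks were called in each library by itself, and the part of depth in these counts was not tested.

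As a set, the promoter regions differed less between groups than libraries differed within a group. Their median level was 3.50, 3.90 and 3.51 in the DMSO libraries on the log2(CPM + 0.5) scale, 3.40, 4.43 and 3.40 in osimertinib DTP, against 3.42, 3.65 and 4.06 after AZD5153. The libraries that stood apart held the highest values. The median fitted log2 fold change between osimertinib DTP and DMSO was 0.30 over the 360 promoter regions, 254 of which were above 0, and 0.35 over all 24296 annotated promoter regions. It was -0.16 without replicate 2 of osimertinib DTP, so its direction rested on that library. Between osimertinib DTP + AZD5153 and osimertinib DTP the median was -0.04, against 0.08 over all annotated promoter regions, and it ranged from -0.34 to 0.37 when single libraries were left out. Between osimertinib DTP + AZD5153 and DMSO it was 0.21, against 0.42 over all annotated promoter regions, but -0.09 when replicate 3 of the AZD5153 group was left out.

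The other regions sat lower at the median after AZD5153. Their median level was 2.70, 3.25 and 3.05 in DMSO, 2.50, 2.90 and 3.07 in osimertinib DTP, against 1.97, 2.70 and 1.39 after AZD5153, on the same log2 scale. The ranges met only through replicate 2 of the last group. As a share of all counts, these regions held 0.176% in DMSO, 0.153% in osimertinib DTP and 0.110% after AZD5153 (group means). The input had 0.133%. After AZD5153 the single libraries had 0.104%, 0.141% and 0.086%, so replicates 1 and 3 lay under the input share and replicate 2 close to it. The median log2 fold change of the 162 regions between osimertinib DTP + AZD5153 and osimertinib DTP was -0.53, with 40 regions above 0. The same median was 0.06 over all 43091 annotated regions outside promoters, 0.07 over the 346 such regions of zinc finger genes on other chromosomes and -0.09 over the 1282 of other genes on chromosome 19. When replicate 3 of the AZD5153 group was left out it was -0.45 for the members, 0.19 over all annotated regions outside promoters, 0.22 for zinc finger genes on other chromosomes and -0.39 for other genes on chromosome 19, which then lay close to the members. When replicate 2 of osimertinib DTP was left out with it, an alternative chosen after seeing the data, these medians were -0.35, 0.32, 0.37 and -0.12. Between osimertinib DTP + AZD5153 and DMSO the median was -0.33, against 0.03 over all annotated regions outside promoters, and between osimertinib DTP and DMSO it was -0.01, against -0.04.

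**Figure D2:**
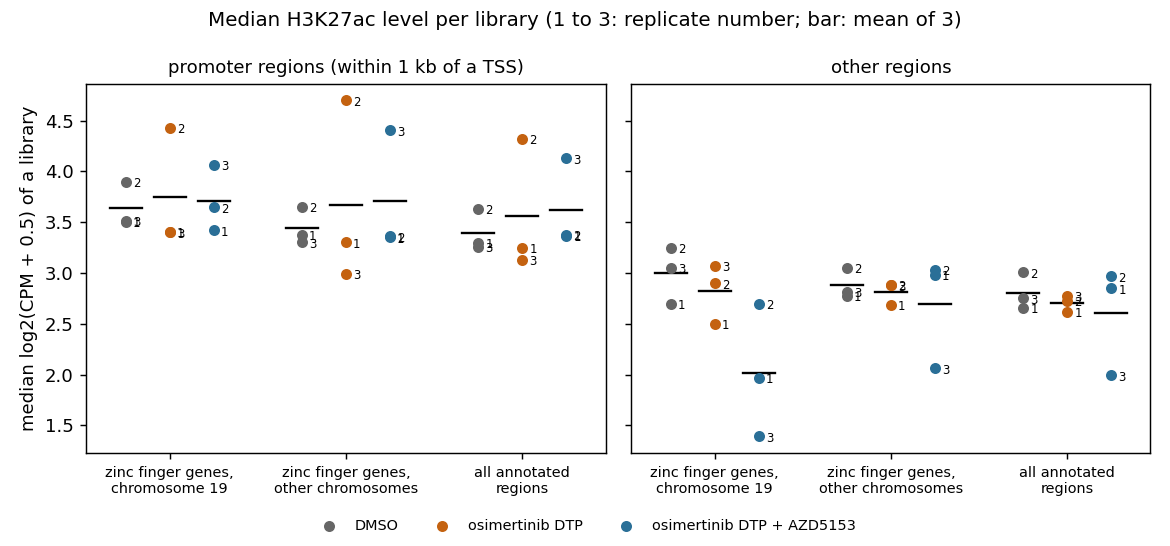
Median H3K27ac level of each library, log2(CPM + 0.5), at promoter regions (left) and other regions (right) of zinc finger genes on chromosome 19, of zinc finger genes on other chromosomes and of all annotated regions; points are libraries with their replicate numbers and bars are means of 3. The members' other regions have means of 3.00, 2.82 and 2.02 in DMSO, osimertinib DTP and osimertinib DTP + AZD5153, and at promoters replicate 2 of osimertinib DTP and replicate 3 of osimertinib DTP + AZD5153 lie highest in each set.

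The comparison of osimertinib DTP with DMSO asked what long exposure to osimertinib changed. By edgeR's quasi-likelihood test, with an adjusted p of 0.05 over all 157919 tested regions as the threshold, 25 of the 522 members were higher (4.79%) and 20 lower (3.83%), against 5.58% and 5.13% of all tested regions. Promoter regions gave 3 higher and 3 lower (0.833% each), against 2.78% and 1.85% of annotated promoter regions. Without replicate 2 or 3 of DMSO or replicate 2 of osimertinib DTP edgeR called 0 promoter regions (17, 15 and 15 had an unadjusted p under 0.05). Of all tested regions it then called 0.701%, 1.94% and 3%. Of annotated promoter regions, 0.811% were higher and 0.403% lower without replicate 2 of osimertinib DTP. DESeq2 with all libraries called 4 promoter regions higher and 6 lower. The DESeq2 calls were 2.78% of the promoter regions, against 16.8% of all tested regions, which include those outside promoters. Without replicate 3 of osimertinib DTP + AZD5153 there were 20 higher and 6 lower, against 9.16% and 5.12% of annotated promoter regions. The other regions gave 22 higher (13.6%) and 17 lower (10.5%), against 9.35% and 10.3% of annotated regions outside promoters. The 45 regions lay in few places and were assigned to 16 genes. The block next to the centromere held 19 of the higher and 5 of the lower regions, and the block at chr19:51593968-53555049 held 1 higher and 12 lower regions.

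These totals moved with single libraries, as did those of all tested regions. The total of 45 was 8.62% of the members, against 10.7% of all tested regions. It became 12 without replicate 2 of DMSO (2.3%, against 0.701%) and 17 without replicate 3 of DMSO (3.26%, against 1.94%). It became 30 without replicate 1 of osimertinib DTP (5.75%, against 5.2%), 23 without replicate 2 (4.41%, against 3%) and 18 without replicate 3 (3.45%, against 2.75%). Without replicate 3 of osimertinib DTP + AZD5153, which enters this comparison through the shared estimate of the spread, 51 members were higher and 37 lower, against 14.2% and 12.7% of all tested regions.

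**Figure D3:**
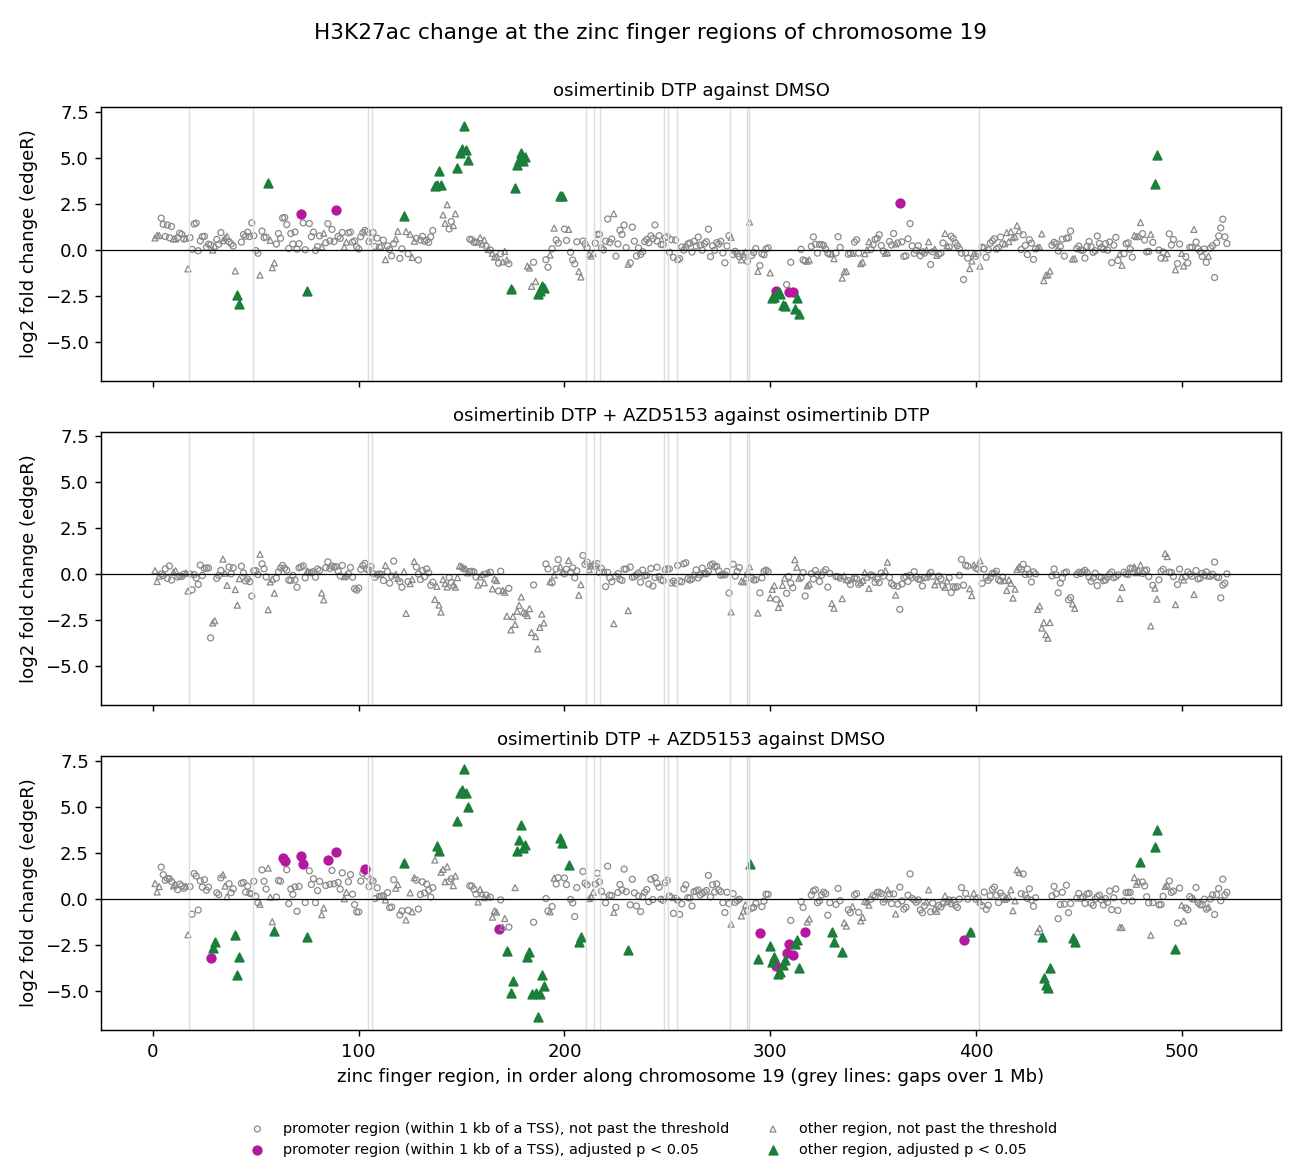
Fitted log2 fold change (y axis) of each of the 522 regions, in order along chromosome 19 (x axis, rank), in the 3 comparisons. Circles are promoter regions and triangles other regions, filled symbols have an adjusted p under 0.05, and grey lines are gaps of over 1 Mb; the filled symbols stand in runs of neighbours above and below 0, and the middle panel has none.

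The largest rises were in runs of neighbouring regions of the block next to the centromere. A run of 6 regions at chr19:21219516-21223661, assigned to ZNF431 but overlapping no RefSeq gene, held summed counts of 15, 18 and 15 in DMSO, 355, 417 and 862 in osimertinib DTP, against 726, 926 and 148 after AZD5153, with 43 in the input. Every library of both treated groups lay above every DMSO library. Its strongest region (chr19:21222051-21222552, 36107 bp from the assigned TSS) had 1, 0 and 1 reads in DMSO, 59, 53 and 119 in osimertinib DTP, against 123, 141 and 14 after AZD5153. All 6 regions passed without any 1 of the 9 libraries. The fitted log2 fold change of the strongest region between osimertinib DTP and DMSO was 6.73 ± 0.95 (SE; edgeR adjusted p = 0.00273). The ratio of its summed reads, scaled for library size, was 128.4, with a 95% counting interval of 35.1 to 1066. This region had a peak in 0 DMSO libraries and in 3 of each treated group. It passed the count filter only through treated libraries, where it was high, which limits its p-value and ratio. The promoter regions of ZNF431 itself did not pass (1.12 and 1.53, edgeR adjusted p = 0.214 and 0.110).

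A second run named after ZNF431, of 4 regions at chr19:21115994-21119481, overlapped the neighbouring gene ZNF714. Its summed counts came to 32, 27 and 20 in DMSO, 193, 253 and 542 in osimertinib DTP, against 82, 228 and 24 after AZD5153. Scaled to library size, the sums were 2.01 to 2.90 CPM in DMSO, 18.4 to 54.6 CPM in osimertinib DTP and 4.64 to 26.5 CPM after AZD5153, so the lowest library after AZD5153 (replicate 3) lay above DMSO but close to it. The log2 fold changes of the 4 regions between osimertinib DTP and DMSO lay between 3.48 and 4.28. Of the 4 calls, 0 were made by edgeR without replicate 2 of DMSO, 2 without replicate 1 of DMSO and 1 without replicate 3 of DMSO or of osimertinib DTP.

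ZNF99, a cluster gene without a promoter region, carried a run of 5 regions over its own body at chr19:22753614-22760260. Summed counts came to 8, 15 and 17 in DMSO, 169, 203 and 466 in osimertinib DTP, against 60, 130 and 13 after AZD5153. Scaled to library size, replicate 3 after AZD5153 had a sum of 2.51 CPM, above the 0.726 to 1.71 CPM of DMSO and under the 16.2 to 46.9 CPM of osimertinib DTP. Of the 5 calls, 2 were made without replicate 2 of DMSO. The leading region, in the 3' UTR, had a log2 fold change of 5.26 ± 1.14 between osimertinib DTP and DMSO (SE; edgeR adjusted p = 0.0097), which rose to 0.0754 once replicate 2 of DMSO was left out. With 3 reads in DMSO against 117, its scaled ratio was 43.4, with a counting interval of 14.5 to 213.3.

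ZNF814 and ZNF723 were also highest in osimertinib DTP at the group mean. The ZNF814 region at chr19:57891313-57891814, inside the gene, had 5, 3 and 1 reads in DMSO, 33, 131 and 103 in osimertinib DTP, against 14, 55 and 24 after AZD5153. Its log2 fold change between osimertinib DTP and DMSO was 5.12 ± 0.86 (SE; edgeR adjusted p = 0.00371). The intergenic region named after ZNF723, which has no promoter region, had 5, 7 and 3 reads in DMSO, 85, 129 and 238 in osimertinib DTP, against 27, 66 and 5 after AZD5153. The log2 fold change was 5.05 ± 0.81 (SE; edgeR adjusted p = 0.0034). In both regions every osimertinib DTP library lay above every DMSO library. These regions and the leading ones of ZNF431 and ZNF841 passed under every alternative tried for this comparison.

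Smaller rises were less stable. The pseudogene ZNF833P (3.60 ± 0.82, SE; edgeR adjusted p = 0.0122) and the region named after ZNF675 (2.91 ± 0.69; adjusted p = 0.0142), whose product binds the signalling adaptor TRAF6, each lost the call without replicate 2 or replicate 3 of DMSO or replicate 3 of osimertinib DTP (adjusted p = 0.0643 to 0.0968). The ZNF675 region lies 88439 bp from the TSS of that gene, over the ribosomal pseudogene RPS27P29. Promoter regions that rose were those of ZNF321P (2.55 ± 0.70; adjusted p = 0.0282), ZNF442 (2.16 ± 0.66; adjusted p = 0.043) and ZNF763 (1.94; adjusted p = 0.0405). ZNF763 lost the call without any 1 of the 3 DMSO or 3 osimertinib DTP libraries (adjusted p = 0.0502 to 0.182) and with the replicate number as a block (0.0502). ZNF321P lost it without any 1 of the 3 DMSO libraries or replicate 2 or 3 of osimertinib DTP (adjusted p = 0.084 to 0.150), and ZNF442 without any 1 of the 3 DMSO libraries or replicate 1 or 2 of osimertinib DTP (0.0537 to 0.215). With the same block, ZNF442 had an adjusted p of 0.0925.

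The falls were led by ZNF841, a cluster gene in which 10 of the 12 regions of a stretch of chromosome were called lower. These 10 regions, over 17011 bp at chr19:52085377-52102387, held summed counts of 1417, 1835 and 1644 in DMSO, 306, 137 and 254 in osimertinib DTP, against 312, 177 and 72 after AZD5153. All treated libraries lay far under all DMSO libraries. The log2 fold changes of the 10 regions between osimertinib DTP and DMSO ran from -3.52 to -2.27. The other 2 regions were promoter regions that missed the threshold, chr19:52092547-52093048 (-1.90; adjusted p = 0.0531) and the top promoter region of the gene, chr19:52095160-52095661 (-0.69; adjusted p = 0.41, and -1.17 with 0.106 between osimertinib DTP + AZD5153 and DMSO). Of the 10 calls, 2 were made without replicate 2 of DMSO and 4 without replicate 3 of DMSO or any 1 of the 3 osimertinib DTP libraries. The 10 took in 3 promoter regions, among them the region that overlaps the promoter sequence shown above, which had 213, 239 and 238 reads in DMSO, 63, 12 and 58 in osimertinib DTP, against 55, 22 and 23 after AZD5153 (log2 fold change between osimertinib DTP and DMSO -2.31, edgeR adjusted p = 0.0208). That promoter region lost the call without replicate 2 or 3 of DMSO or any 1 of the 3 osimertinib DTP libraries (adjusted p = 0.0555 to 0.105). Farthest upstream, the region at chr19:52101886-52102387 fell from 60, 93 and 99 reads in DMSO to 9, 4 and 7 in osimertinib DTP (-3.52 ± 0.61, SE; adjusted p = 0.00379).

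A region inside ZNF841 but named after ZNF432, at chr19:52069934-52070435, also fell, from 224, 315 and 258 reads in DMSO to 60, 27 and 33 in osimertinib DTP (-2.61 ± 0.62, SE; edgeR adjusted p = 0.0146). It lost the call without replicate 2 or 3 of DMSO or of osimertinib DTP (adjusted p = 0.0620 to 0.0953). The promoter region of ZNF432 itself did not pass (0.10, adjusted p = 0.939).

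Upstream of ZNF121, whose product interacts with MYC, an intergenic region at chr19:9599128-9599629 had 42, 47 and 63 reads in DMSO against 9, 4 and 5 in osimertinib DTP (-2.93 ± 0.64, SE; edgeR adjusted p = 0.00966), and lost the call without replicate 2 or 3 of DMSO or replicate 3 of osimertinib DTP (0.0657 to 0.0749). The ZNF121 promoter region did not pass (0.20, adjusted p = 0.865). In ZNF730, intron and exon regions at chr19:23098498-23102142 held summed counts of 976, 1968 and 1666 in DMSO and 440, 167 and 371 in osimertinib DTP, with log2 fold changes from -2.39 to -1.97. The osimertinib DTP sums were all under the lowest DMSO sum. Of these 4 calls edgeR made 0 without replicate 2 or 3 of DMSO or any 1 of the 3 osimertinib DTP libraries. The first of these regions had an adjusted p of 0.0236, lost without replicate 2 or 3 of DMSO or any 1 of the 3 osimertinib DTP libraries (0.0722 to 0.143) and 0.0524 with the replicate block. Regions named after ZNF878 (-2.26 ± 0.69; adjusted p = 0.0428) and ZNF729 (-2.11 ± 0.65; adjusted p = 0.045) lost the call without any 1 of the 6 libraries compared (0.0620 to 0.258), and ZNF729 also with the block (0.0592).

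The comparison of osimertinib DTP + AZD5153 with osimertinib DTP set 21 days of osimertinib and 3 of AZD5153 against 24 days of osimertinib. By edgeR 0 of the 522 members passed the threshold, as in the whole table (0.0% higher and 0.0% lower). At an unadjusted p under 0.05 there were 45 of the 162 other regions (1 higher, 44 lower) and 3 of the 360 promoter regions (all lower), against 4.44% of all tested regions. The 45 were 27.8%, against 5.99% of annotated regions outside promoters (959 higher, 1620 lower). The 3 were 0.833%, against 1.79% of annotated promoter regions (179 higher, 256 lower). DESeq2 called 6 other regions and 1 promoter region, all lower, and 80 regions in the whole table. Without replicate 3 of osimertinib DTP + AZD5153 edgeR called 0 members higher and 6 lower, against 0.0637% and 0.0587% of all tested regions.

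The lowest p-values among falls belonged to ZNF699, ZNF582 and ZNF730, which missed the threshold. At the ZNF699 region near an annotated TSS (chr19:9305996-9306497) there were 85, 63 and 53 reads in DMSO, 120, 54 and 44 in osimertinib DTP, against 9, 5 and 3 after AZD5153. The first 2 groups overlapped and all libraries after AZD5153 were under them. The log2 fold change between osimertinib DTP + AZD5153 and osimertinib DTP was -3.46 ± 0.63 (SE; edgeR adjusted p = 0.313, DESeq2 adjusted p = 0.00274), with an edgeR adjusted p of 0.0387 once replicate 3 of the AZD5153 group was left out. The other promoter region of ZNF699, at chr19:9309365-9309866, had a value of -0.22 (adjusted p = 1.0).

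ZNF582, a gene whose promoter is methylated in several cancers, had 96, 160 and 117 reads in DMSO at its intron region chr19:56385263-56385764, 36, 31 and 65 in osimertinib DTP, against 5, 3 and 2 after AZD5153. The groups were fully separate and descended in that order. Between osimertinib DTP + AZD5153 and osimertinib DTP the log2 fold change was -3.47 ± 0.65 (SE; edgeR adjusted p = 0.337, DESeq2 adjusted p = 0.00914), or 0.0404 by edgeR once replicate 3 of the AZD5153 group was left out. The leading ZNF730 region had 155, 345 and 273 reads in DMSO, 63, 19 and 59 in osimertinib DTP, against 3, 4 and 0 after AZD5153, again in full separation. Its value was -4.05 ± 0.78 (SE; edgeR adjusted p = 0.44, DESeq2 adjusted p = 0.00568; edgeR 0.0404 without replicate 3 of osimertinib DTP + AZD5153). Rises of lowest p were regions named after ZNF135 (1.13), ZNF627 (1.09) and ZNF254 (1.02), each with an edgeR adjusted p of 1.0.

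The comparison of osimertinib DTP + AZD5153 with DMSO uses the same DMSO libraries as the first one, so the values of both are set side by side and no overlap is tested. By edgeR 28 members were higher (5.36%) and 53 lower (10.2%), against 9.05% and 9.01% of all tested regions. Promoter regions gave 7 higher (1.94%) and 9 lower (2.5%), against 5.32% and 3.18% of annotated promoter regions. Without any 1 of the DMSO libraries edgeR called 0 promoter regions higher and 4 to 6 lower (19 to 26 had an unadjusted p under 0.05 in either direction). Of all tested regions, which include those outside promoters, it then called 5.16% to 10.6%. DESeq2 with all libraries called 15 promoter regions higher and 12 lower. The DESeq2 calls were 7.5% of the promoter regions, against 23.8% of all tested regions, which include those outside promoters. The other regions gave 21 higher (13%) and 44 lower (27.2%), against 13.7% and 15.6% of annotated regions outside promoters. The lower regions were found in the block next to the centromere (14), in the block at chr19:51593968-53555049 (22), in the block at the end of the long arm (8) and in 3 further blocks (6, 2 and 1). The total of 81 (15.5% of the members, against 18.1% of all tested regions) was 53 without DMSO replicate 1 (10.2%, against 10.6%), 43 without replicate 2 (8.24%, against 5.16%) and 47 without replicate 3 (9%, against 6.14%). Without replicate 3 of osimertinib DTP + AZD5153 there were 43 higher and 74 lower members, against 18.4% and 17.3% of all tested regions.

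Among other regions the largest falls were in runs within or between the cluster genes. In ZNF730 a run of 5 regions at chr19:23097049-23102142 had log2 fold changes from -6.44 to -4.13, with summed counts of 1029, 2024 and 1783 in DMSO, 466, 170 and 408 in osimertinib DTP, against 63, 49 and 23 after AZD5153. The groups stepped down without overlap. Its leading region reached -6.44 ± 0.82 (SE; edgeR adjusted p = 0.00114). At ZNF582 and its neighbour ZNF542P, 5 regions at chr19:56378582-56386433 summed to 581, 1135 and 747 in DMSO, 284, 196 and 486 in osimertinib DTP, against 52, 47 and 9 after AZD5153, with log2 fold changes against DMSO from -4.84 to -2.06. The promoter region of ZNF582 had a value of 0.16 (adjusted p = 0.877).

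Intergenic regions named after ZNF728 and ZNF729, which have no promoter region, fell in the same block. The ZNF728 region at chr19:22936554-22937055 had 66, 107 and 104 reads in DMSO, 26, 5 and 36 in osimertinib DTP, against 2, 4 and 0 after AZD5153 (-5.15 ± 0.84 against DMSO, SE; edgeR adjusted p = 0.00159). The ZNF729 region at chr19:22326102-22326603 had 68, 155 and 87 reads in DMSO, 41, 11 and 16 in osimertinib DTP, against 4, 3 and 0 after AZD5153 (-5.13 ± 0.80, SE; adjusted p = 0.00143). In both, replicate 3 of osimertinib DTP + AZD5153 had no read, and the input had 13 and 12.

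Falls of similar size were found elsewhere. In front of ZNF121 the region at chr19:9598387-9598888 had 152, 162 and 136 reads in DMSO, 35, 12 and 28 in osimertinib DTP, against 11, 6 and 3 after AZD5153 (-4.16 ± 0.61 against DMSO, SE; edgeR adjusted p = 0.00122). Of the 12 regions in the ZNF841 stretch 11 were lower, led by chr19:52086744-52087245 with 127, 170 and 141 reads in DMSO, 32, 16 and 34 in osimertinib DTP, against 8, 9 and 3 after AZD5153 (-4.11 ± 0.60, SE; adjusted p = 0.00122). The region named after ZNF432 had a value of -3.43 ± 0.65 (SE; adjusted p = 0.00294). An exon region of ZNF350, which encodes a repressor that binds BRCA1, had 145, 124 and 166 reads in DMSO, 84, 47 and 42 in osimertinib DTP, against 25, 8 and 4 after AZD5153 (-3.29 ± 0.62, SE; adjusted p = 0.00279). The groups did not overlap in these regions, except that the treated groups overlapped each other at the one named after ZNF432.

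The largest rises against DMSO were those of ZNF431, ZNF99 and ZNF814. The ZNF431 region had a log2 fold change of 7.07 ± 0.95 (SE; edgeR adjusted p = 0.00114) after AZD5153, next to 6.73 without it, and a scaled ratio of 179.4 with a counting interval of 49.2 to 1489. ZNF814 had 3.76 ± 0.84 (adjusted p = 0.0068), next to 5.12, and the second region named after ZNF675 had 3.30 ± 0.74 (adjusted p = 0.00711), next to 2.89. ZNF99 had 4.02 ± 1.15 (adjusted p = 0.0227), next to 5.26, with a scaled ratio of 19.8 (6.36 to 99.5), and lost the call without replicate 1 or 2 of DMSO or replicate 2 of osimertinib DTP + AZD5153 (0.0909, 0.105 and 0.172) and with the replicate block (0.0518). ZNF723 had 2.93 ± 0.77 (adjusted p = 0.0154), next to 5.05, and lost it without any 1 of the 3 DMSO libraries or replicate 2 of osimertinib DTP + AZD5153 (0.0570 to 0.0898).

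**Figure D4:**
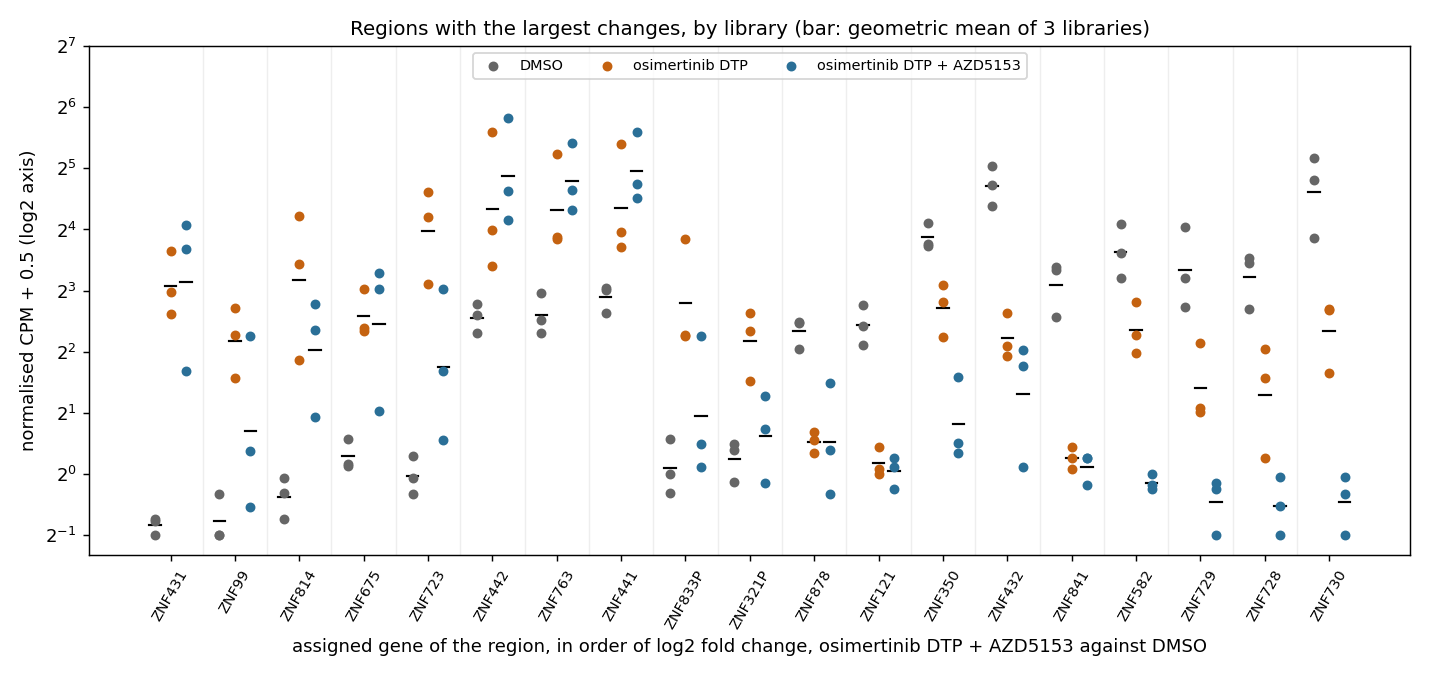
Normalised CPM + 0.5 (log2 axis) of each library at 1 of the regions named for its change for each of 19 assigned genes, ordered by log2 fold change between osimertinib DTP + AZD5153 and DMSO; points are libraries and bars are geometric means of 3. From ZNF431 to ZNF441 all libraries after AZD5153 except replicate 3 at ZNF99 lie above DMSO, and from ZNF878 to ZNF730 DMSO lies above the other groups.

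The 7 promoter regions that rose against DMSO after AZD5153 all lay in the block at chr19:11505375-12640294 and belonged to ZNF441, ZNF763, ZNF433, ZNF44, ZNF442 and ZNF791. ZNF442 had 70, 54 and 44 reads in DMSO, 161, 343 and 100 in osimertinib DTP, against 173, 208 and 290 after AZD5153 (2.57 ± 0.66 against DMSO, SE; edgeR adjusted p = 0.0142). ZNF763 had 49, 71 and 52 reads in DMSO, 145, 268 and 141 in osimertinib DTP, against 195, 211 and 217 after AZD5153 (2.33 ± 0.59, SE; adjusted p = 0.0124). ZNF441 had 83, 75 and 57 reads in DMSO, 158, 298 and 126 in osimertinib DTP, against 222, 227 and 247 after AZD5153 (2.19 ± 0.59, SE; adjusted p = 0.0174). In all 3 regions every treated library exceeded every DMSO library. Each lost the call when any 1 DMSO library was left out (adjusted p = 0.0508 to 0.0831 for ZNF442, 0.0553 to 0.0776 for ZNF763 and 0.0653 to 0.103 for ZNF441). Values for ZNF433, ZNF44 and ZNF791 were 1.91, 2.08 and 1.63, and these calls too were lost without any 1 of the DMSO libraries (adjusted p = 0.0818 to 0.175), that of ZNF433 also with the replicate block (0.0578).

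Most promoter regions of the block were above 0, as in the neighbouring blocks. Of its 46 promoter regions, 42 were above 0 between osimertinib DTP and DMSO, with a median of 0.71, and the median between osimertinib DTP + AZD5153 and DMSO was 0.91 (0.44 without replicate 3 of the AZD5153 group). Over all 360 promoter regions those medians were 0.30 and 0.21. Without replicate 2 of osimertinib DTP the median between osimertinib DTP and DMSO in this block was 0.24, and in the 2 long-arm blocks named above it was -0.25 and -0.34. In the block at chr19:2815179-2954049, 10 of 10 promoter regions were above 0 between osimertinib DTP and DMSO, with medians of 0.86 and 0.97 in those comparisons with DMSO (0.23 and 0.07, respectively, when the library of each treated group that stood apart was left out). In the block at chr19:7069296-9792570, 22 of 23 were above 0, with medians of 0.56 and 0.64 (0.06 and 0.31 when the same libraries were left out).

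Promoter regions that fell after AZD5153 against DMSO belonged to ZNF841 (4 regions), ZNF699, ZNF43, ZNF350, ZNF616 and ZNF331. The ZNF43, ZNF350 and ZNF616 calls were lost without any 1 DMSO library or replicate 1 or 2 of osimertinib DTP + AZD5153 (edgeR adjusted p = 0.0649 to 0.22). ZNF841 lost 1 call without DMSO replicate 3 (0.0572) and 1 without replicate 2 (0.0529). The ZNF699 call and the other ZNF841 calls were kept without any 1 of the 9 libraries. The imprinted ZNF331 had 145, 123 and 151 reads in DMSO at chr19:53521406-53521907, 67, 17 and 44 in osimertinib DTP, against 34, 18 and 17 after AZD5153 (-2.22 ± 0.56 against DMSO, SE; edgeR adjusted p = 0.0125, but 0.0506 and 0.0594 without replicate 2 or 3 of DMSO). This region was chosen after its values were seen, and the top promoter region of ZNF331 had a value of 0.30 (adjusted p = 0.766). An intron region named after ZNF274, at chr19:58170683-58171184, was lower as well (-2.74 ± 0.58, SE; adjusted p = 0.00504), while the top promoter region of that gene had 0.59 (adjusted p = 0.461).

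Genes of the machinery that KRAB zinc finger proteins work through were read at their own top promoter regions. Of 23 symbols, 18 had such a region, ZNF274 among them, and TRIM28 had none. By edgeR 0 of the 18 passed in each comparison. Of annotated promoter regions, 2.78% were higher and 1.85% lower in osimertinib DTP against DMSO. The shares were 5.32% and 3.18% for osimertinib DTP + AZD5153 against DMSO, and 0.0% in both directions between the treated groups. At an unadjusted p under 0.05 there were 1 for osimertinib DTP against DMSO, 0 for osimertinib DTP + AZD5153 against osimertinib DTP and 2 for osimertinib DTP + AZD5153 against DMSO, and DESeq2 called 0, 0 and 1. Those unadjusted shares were 5.56%, 0.0% and 11.1%, against 12.9%, 1.79% and 18.6% of annotated promoter regions. Of all tested regions, which include those outside promoters, DESeq2 called 16.8%, 0.0507% and 23.8%. SETDB1, the H3K9 methyltransferase, had log2 fold changes against DMSO of 0.03 in osimertinib DTP and 0.41 after AZD5153. The median log2 fold changes over the 18 were 0.27, 0.21 and 0.59, next to 0.35, 0.08 and 0.42 over all annotated promoter regions. Over all annotated promoter regions the first was -0.15 without replicate 2 of osimertinib DTP. The other medians were -0.34 and -0.0045 without replicate 3 of osimertinib DTP + AZD5153. Medians over the 18 were not computed without these libraries.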

How the data were processed

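H3K27ac ChIP-seq libraries of H1975 cells (9, and 1 input) were used as deposited. Per the submitters' processing notes, BWA 0.7.17, MACS2 2.2.6, featureCounts 2.0.0 and ChIPseeker 1.29.1 and build hg38 were used by the authors, and their settings, the handling of duplicates and of reads that fit several near-identical zinc finger genes are not given in the sources used here. The deposited count tables hold whole read counts per 502 bp region, not normalised, with an annotation of 67387 of 169637 regions. The deposited peak lists hold, for each library, a fold enrichment ratio and −log10 values of p and q from the authors' peak caller, which were used for overlap (at least 1 bp) and for a stricter threshold (−log10 q of at least 5).

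Counts were filtered (filterByExpr, minimum count 10), scaled by TMM and fitted with edgeR 4.0.16 (R 4.3.3, robust quasi-likelihood, all 9 libraries, a mean per group), with Benjamini-Hochberg adjustment over all tested regions. All 522 members passed the filter. Some, such as the leading regions of ZNF431, ZNF99, ZNF814 and ZNF723, passed it only through treated libraries. This limits their p-values and ratios. The fit was tested on simulated data. DESeq2 1.42.0, a loess offset (limma 3.58.1), total counts, other filters, single libraries left out and a replicate block were the alternatives. CPM is counts scaled to library size after TMM. Intervals of single ratios cover counting error only. The p-values measure the spread between these cultures.

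The members and lists were chosen with earlier results of these data known. Genes named were the 10 with the highest top promoter region, in each comparison the 8 largest rises and 8 largest falls past the threshold (1 region per gene, or the 3 of smallest p in each direction where none passed) and genes of a known role. Same-numbered replicates of osimertinib DTP and DMSO deviated together (r = 0.334, 0.355 and 0.324), those of the other comparisons did not all do so (0.243, 0.026 and -0.240; -0.018, 0.553 and 0.362). Promoter sequences came from RefSeq (GRCh38.p14), which held 185 of the 218 symbols. Proteins were not analysed here. One marker gene is not reported here.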

Additional observations from a re-analysis of the deposited data

How the results depend on the processing

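Leaving out single libraries gave 12 to 88 members past the threshold for osimertinib DTP against DMSO (2.3% to 16.9%, against 0.701% to 26.8% of all tested regions), 0 to 6 for osimertinib DTP + AZD5153 against osimertinib DTP (at most 1.15%, against 0.122%) and 43 to 117 for osimertinib DTP + AZD5153 against DMSO (8.24% to 22.4%, against 5.16% to 35.7%). At an adjusted p of 0.01 the first and last comparisons gave 19 and 42 (3.64% and 8.05%, against 2.39% and 6.2%), and the first gave 87 when fitted on its 2 groups alone (16.7%, against 26.4%). DESeq2 gave 7 for the second (1.34%, against 0.0472%). Without replicate 2 of osimertinib DTP and replicate 3 of osimertinib DTP + AZD5153 together, chosen after seeing the data, the totals were 90, 25 and 157 (17.2%, 4.79% and 30.1%, against 26.9%, 2.11% and 42.6%). The promoter median between osimertinib DTP and DMSO ranged from -0.16 to 0.54 with single libraries left out and was -0.19 without both, and that between osimertinib DTP + AZD5153 and DMSO ranged from -0.0876 to 0.35. With the replicate block the totals were 43, 0 and 80 (8.24%, 0% and 15.3%, against 10.4%, 0% and 17.5%), and beyond the calls given above it changed no named call. Of 14, 6 and 16 named regions in the 3 comparisons, 4, 3 and 11 kept their side of the threshold under every alternative and 0 reversed. The median of all tested regions moved from 0.23 to -0.02 with total counts for osimertinib DTP + AZD5153 against DMSO, from 0.15 to 0.03 with DESeq2 for osimertinib DTP against DMSO, and from 0.06 to 0.23 (DESeq2) or -0.09 (total counts) for the remaining comparison. The causes were not tested. Low input depth and reads shared by near-identical genes limit single regions.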
